A study of Mus musculus with 6 samples.

Results

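Genes of potassium channels were compared between cells of the mouse olfactory epithelium that carry the adhesion protein ICAM1 on their surface and cells that do not. They were taken as every probe set whose array annotation gives a symbol beginning with Kcn, then at least 1 further letter and a number. The rule found 167 probe sets for 84 genes, of 45037 probe sets outside the array's own controls and 18193 genes with a symbol of their own. It takes in pore-forming subunits, the auxiliary subunits that bind them and 3 antisense RNAs. All animals were CD1 mice, with no other allele or treatment named. For each of 3 litters, at postnatal day 21, 22 and 24, dissociated epithelium was stained with an anti-ICAM1 antibody coupled to FITC and sorted by fluorescence, and the positive and the negative cells each gave 1 Affymetrix mouse array. There were thus 3 ICAM1-positive and 3 ICAM1-negative arrays, and each sort was defined by 1 surface antigen only. Each sample's free-text description states the other ICAM1 population than its title, source name and population label do. The titles were followed here, and Icam1 itself had a mean intensity of 20.8 ± 10.9 (SD, n = 3) in the arrays titled ICAM1-negative and 6974 ± 237 in those titled ICAM1-positive.

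Potassium channels let potassium ions leave the cell along their gradient, which holds the resting membrane negative and ends electrical activity. The voltage-gated Kv, Kv7 and EAG-related families open when a neuron is depolarised, and the large- and small-conductance families respond to intracellular calcium. Inward rectifiers and two-pore-domain channels pass current at rest, and in epithelia and glia they also recycle and clear potassium. Olfactory sensory neurons fire action potentials and depend on the first groups to repolarise, whereas ICAM1 marks horizontal basal cells, the reserve stem cells that lie on the basement membrane of this epithelium.

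The windows around the annotated starts of 4 genes are shown because these genes gave large differences between the sorts, Kcnh1 and Kcnj13 towards the ICAM1-positive cells and Kcnc4 and Kcna5 towards the ICAM1-negative cells. Each runs 5′ to 3′ from 250 bases before to 50 bases after the start, in RefSeq's GRCm38.p6 annotation. Kcnh1 lies on the plus strand at chr1:192190527-192190826, Kcnj13 on the minus strand at chr1:87394680-87394979, Kcnc4 on the minus strand at chr3:107458849-107459148 and Kcna5 on the minus strand at chr6:126535506-126535805. Capitals mark matches to the motifs named after the sequences.
Kcnh1: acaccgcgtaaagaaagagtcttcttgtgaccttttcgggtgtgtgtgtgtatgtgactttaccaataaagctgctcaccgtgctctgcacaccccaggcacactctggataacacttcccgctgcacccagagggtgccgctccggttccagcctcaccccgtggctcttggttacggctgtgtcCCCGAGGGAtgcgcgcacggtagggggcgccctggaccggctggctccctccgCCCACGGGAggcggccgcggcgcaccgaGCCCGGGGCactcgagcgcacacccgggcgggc
Kcnj13: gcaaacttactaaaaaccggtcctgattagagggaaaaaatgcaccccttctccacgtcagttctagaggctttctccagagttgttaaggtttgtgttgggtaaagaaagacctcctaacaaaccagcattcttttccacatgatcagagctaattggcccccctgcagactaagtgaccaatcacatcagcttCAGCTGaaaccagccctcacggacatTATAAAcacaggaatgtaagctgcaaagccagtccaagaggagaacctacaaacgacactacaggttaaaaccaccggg
Kcnc4: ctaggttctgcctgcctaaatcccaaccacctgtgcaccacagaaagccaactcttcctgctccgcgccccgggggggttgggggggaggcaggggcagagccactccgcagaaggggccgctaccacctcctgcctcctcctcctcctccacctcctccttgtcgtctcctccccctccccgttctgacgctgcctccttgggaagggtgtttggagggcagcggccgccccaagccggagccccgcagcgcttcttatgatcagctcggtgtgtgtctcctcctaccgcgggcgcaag
Kcna5: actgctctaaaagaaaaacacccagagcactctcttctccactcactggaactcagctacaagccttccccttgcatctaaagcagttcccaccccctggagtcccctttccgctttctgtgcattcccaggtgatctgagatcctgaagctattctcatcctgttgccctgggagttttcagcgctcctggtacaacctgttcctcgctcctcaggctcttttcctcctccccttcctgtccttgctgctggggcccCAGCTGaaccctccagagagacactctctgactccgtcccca
Letter patterns of 4 kinds were searched on both strands without regard to overlap. They were CCCNNGGGA, most of the palindrome bound by EBF factors of olfactory neurons, GCCNNNGGC, bound by AP-2 factors of epithelia, the E-box CAGCTG, bound by basic helix-loop-helix factors, and the TATA box TATAAA. The window of Kcnh1 holds an AP-2 match and 2 EBF matches, that of Kcnj13 holds an E-box and a TATA match, that of Kcna5 holds an E-box match and that of Kcnc4 holds none of the 4. Windows were given for 64 of the 84 Kcn genes, 89 in all. The AP-2 pattern was in 20 of these 89 (22.5%) and in 16.6% of all 32851 windows. The E-box was in 24 (27%) against 16.3%, TATAAA in 5 (5.62%) against 13.6%, and the EBF pattern in 5 (5.62%) against 6.56%. A match describes the letters only. The median GC content was 58% over the windows of Kcn genes, 53% over those of genes called higher in ICAM1-positive cells, 62.5% over those of genes called lower, and 52.7% over all windows. The GC content was 66% for Kcnh1 and 66.7% for Kcnc4, which differed in opposite directions, and 46% for Kcnj13 and 55% for Kcna5.

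More Kcn genes were lower than higher in the ICAM1-positive cells. Of 74 Kcn genes with a probe set above an intensity of 16 on at least 3 arrays, 27 (36.5%) were called lower and 9 (12.2%) higher at an adjusted p under 0.05, and 38 did not pass. Among all 16399 genes tested in the same way, 20.8% were called lower and 20.6% higher. The background for single probe sets was 18% lower and 16.9% higher, and of 134 Kcn probe sets tested, 46 were called lower and 16 higher. In 29 of the 74 genes all ICAM1-negative arrays lay above all ICAM1-positive arrays and in 12 the reverse, against 30.1% and 27.8% of all genes. The median log2 difference, ICAM1-positive minus ICAM1-negative, was -0.44 over the 74 genes and -0.06 over all genes. In sorted bulk RNA, fewer cells of a type and less RNA per cell cannot be told apart.

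The deposited values carry no detection calls, so the median intensity of each array, which ranged from 87.7 to 102.4, served as the mark below which a value was treated as near background. Where the dimmer sort lay below that mark on all 3 of its arrays, the fold is given as a lower bound against the mark ("at least"). With every lower intensity raised to the mark, 25 of the 27 lower calls and 6 of the 9 higher calls were kept. Those that were not kept are Kcnf1, Kcnn4, Kcne2, Kcne3 and Kcnj10. Of the 38 genes that did not pass, 27 were below the mark on all 6 arrays. The 10 genes not tested, Kcnab3, Kcne1, Kcnh5, Kcnj14, Kcnj2, Kcnk3, Kcnmb4os1, Kcnn3, Kcns1 and Kcnt2, had no intensity above 28.9 on any array. 6 Kcn probe sets passed the filter only through the 3 arrays of 1 sort, and all 6 were called. They include the probe sets that represent Kcnc1, Kcnq3, Kcnf1 and Kcne2, and they stay in the counts above. Since the filter took these sets in through their brighter sort, their calls add no separate support.

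**Figure D1:**
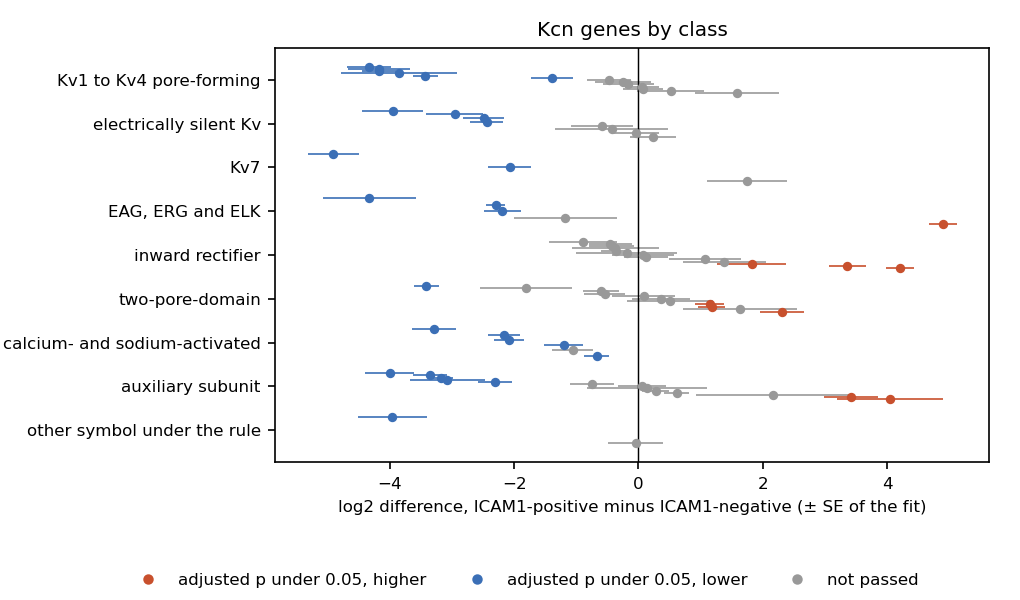
Log2 difference (ICAM1-positive minus ICAM1-negative, horizontal axis) of each of the 74 tested Kcn genes, 1 point per gene with the standard error of the fit, in rows by channel class and coloured by call. The calls in the calcium- and sodium-activated row and in the Kv1 to Kv4 row lie on the negative side, whereas the 3 called inward rectifiers lie on the positive side.

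Calls are given next by class, with classes set by gene symbol. Of all genes tested, 20.8% were called lower and 20.6% higher. None of the 13 Kv1 to Kv4 genes was called higher and 6 were called lower, with a class median of -0.47. For the 8 tested silent Kv genes, 4 were lower and 0 higher (median -1.51), and 2 of the 3 Kv7 genes were lower (median -2.07). The EAG, ERG and ELK class had 3 lower and 1 higher of 5 (median -2.19). In the calcium- and sodium-activated class 5 of 6 were lower and 0 higher (median -1.64). Among 13 inward rectifiers 3 were higher and 0 lower (median 0.07), and among 11 two-pore-domain genes 3 were higher and 1 lower (median 0.36). Auxiliary subunits were mixed, with 2 higher and 5 lower of 13 (median 0.05). The classes are small, and the shares of inward rectifiers and two-pore-domain genes called higher lie close to that of all genes. With low intensities raised, 2 inward rectifiers stayed higher. The class counts include Kcnc1, Kcnq3, Kcnf1 and Kcne2, which passed the filter only through 1 sort. No test compared one class with another.

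Of the Kv1 genes, which form the delayed rectifiers of axons and excitable cells, Kcna2 and Kcna5 fell in the ICAM1-positive cells. Kcna2 read 3171, 3575 and 3009 in the negative sort of litters 1, 2 and 3, against 94.4, 202 and 217 in the positive sort, the order kept for every gene that follows. The groups were far apart, with a log2 difference of -4.34 ± 0.35 (SE; limma adjusted p = 0.000454). Of its other probe sets, 2 fell as well, 1 at least 9.06-fold (log2 -4.12 ± 0.28, adjusted p = 0.000285) and 1 at least 1.54-fold (-2.60 ± 0.44, adjusted p = 0.00613, but 0.0526 with low intensities raised), and 1 did not pass. Kcna5 had 2123, 2976 and 2112 against 99.2, 172 and 134, again with no overlap, a difference of -4.17 ± 0.27 (adjusted p = 0.000264). Kcna6, a further Kv1 delayed rectifier, read 365, 211 and 476 in the negative sort and 38.2, 5.4 and 59.2 in the positive sort. Its groups did not overlap, it was at least 3.45-fold lower (log2 -3.85 ± 0.93, adjusted p = 0.0227), and 2 other Kcna6 probe sets did not pass. Its adjusted p was 0.111 without litter 1 (log2 -4.15), 0.0683 without litter 3 (-4.27), 0.0683 without the ICAM1-negative array of litter 1 (-3.78) and 0.0727 without that of litter 3 (-3.59). The log2 difference of Kcna6 was -2.80 without the ICAM1-positive array of litter 2, -3.13 without that whole litter and -4.53 without the ICAM1-positive array of litter 3.

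Kv3 channels open only at strong depolarisation and let neurons repolarise fast, and Kcnc4 and Kcnc1 fell. Kcnc4 had intensities of 7479.8, 5335 and 8599 in the negative sort against 198, 404 and 728 in the positive sort. Every negative array was above every positive one, and the log2 difference was -4.17 ± 0.50 (adjusted p = 0.00163). A second Kcnc4 probe set was at least 12.5-fold lower (log2 -5.02 ± 0.78, adjusted p = 0.00439). Kcnc1 read 123, 129 and 122 against 9.2, 12.6 and 13.4, close agreement within each sort, but its brighter sort was only just above the median of the arrays. It was at least 1.29-fold lower (log2 -3.43 ± 0.20, adjusted p = 0.000208), but it passed the filter only through the negative sort. Of the 4 tested Kcnc1 probe sets 3 were called lower and 1 did not pass. Kcnd2 belongs to the Kv4 channels, whose A-type current works below the firing threshold, and it read 141, 138 and 126 against 34.6, 83.3 and 47.2. Those groups did not overlap and the gene was at least 1.4-fold lower (log2 -1.39 ± 0.34, adjusted p = 0.024). This call was lost without litter 1 (log2 -1.07, adjusted p = 0.139), without litter 3 (-1.38, 0.15) and without any of 5 single arrays, all but the ICAM1-positive array of litter 2 (adjusted p 0.0544 to 0.0754). The other 7 Kv1 to Kv4 genes, Kcna1, Kcna3, Kcna4, Kcna7, Kcnc2, Kcnd1 and Kcnd3, overlapped between the sorts, with adjusted p from 0.127 to 0.893.

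Silent Kv subunits form no channel alone and change the gating of the Kv2 channels they join, whose genes were not analysed here. Kcng1 read 153, 196 and 405 on the negative arrays and 11.2, 11.5 and 25.4 on the positive arrays, at least 2.39-fold lower (log2 -3.95 ± 0.49, adjusted p = 0.00191). The negative sort of litter 3 was the highest, and no array of the other sort reached the negative range. Kcns2 had 251, 202 and 265 against 57.5, 43.7 and 33.2, at least 2.47-fold lower (-2.44 ± 0.26, adjusted p = 0.00104). Another Kcns2 probe set, near background in both sorts, did not pass (0.25, adjusted p = 0.784). Kcns3 had 329.9, 532 and 253 against 45.2, 75.7 and 27.6, also without overlap, and was at least 3.68-fold lower (-2.96 ± 0.46, adjusted p = 0.00422). Without litter 1 Kcns3 had an adjusted p of 0.0554 (log2 -3.0), and a second Kcns3 probe set was at least 2.18-fold lower (-1.81 ± 0.34, adjusted p = 0.00905). Kcnf1 passed as well, from 50.3 ± 4.18 to 9.47 ± 3.71 (n = 3 each), with both sorts near background. Kcng2, Kcng4, Kcnv1 and Kcnv2 did not pass and were below the array medians throughout.

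Kv7 channels carry slow currents, the M-current of neurons for Kcnq3 and Kcnq5 and a current of heart and epithelia for Kcnq1. Kcnq3 read 236, 222 and 133 in the negative sort and 10.3, 6.1 and 4.1 in the positive sort. The sorts did not overlap and the positive sort was at least 1.98-fold lower (log2 -4.91 ± 0.41, adjusted p = 0.000484). Kcnq3 passed the filter only through the negative sort, so its call adds no separate support. Another Kcnq3 probe set did not pass. Kcnq1 read 264, 436 and 309 against 81.1, 111 and 53.3, a difference of -2.07 ± 0.34 (adjusted p = 0.00552), or -1.66 with low intensities raised. Kcnq5 lay the other way, at 75.4, 80.0 and 16.5 against 166, 174 and 130.3. Its positive arrays were all above the negative ones, but the difference of 1.75 ± 0.64 did not pass (adjusted p = 0.0839). With low intensities raised it did pass, as at least 1.62-fold higher (adjusted p = 0.00541). Of its further probe sets 2 passed as higher, at 1.72 ± 0.42 (adjusted p = 0.023) and 2.46 ± 0.57 (adjusted p = 0.0196), and neither held with low intensities raised.

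Within the EAG, ERG and ELK class, 1 gene rose and 3 fell. Kcnh1 encodes EAG1, a slowly activating channel best known from brain and from tumours. It read 92.8, 109 and 76.9 on the negative arrays and 3303, 2389.7 and 2632 on the positive arrays. The negative sort was near the array medians and the positive sort far above them, a log2 difference of 4.90 ± 0.22 (adjusted p = 0.000148), or 4.77 with low intensities raised. Its second probe set rose too, from 46.8, 38.8 and 51.5 to 763, 453 and 584, at least 6.09-fold (log2 3.69 ± 0.25, adjusted p = 0.00029). The ERG gene Kcnh2, whose current repolarises the heart, read 289, 297 and 292 against 61.9, 61.1 and 55.7. Both sorts varied little between litters, and Kcnh2 was at least 3.04-fold lower (-2.30 ± 0.15, adjusted p = 0.000277). Of the neuronal ELK genes, Kcnh3 had 927, 667 and 929 against 237, 127 and 201, without overlap (-2.19 ± 0.30, adjusted p = 0.00259). Of its further probe sets 2 also fell, at -1.64 ± 0.37 (adjusted p = 0.0178) and at least 1.51-fold (-0.92 ± 0.24, adjusted p = 0.0315), the latter not with litter as a block (adjusted p = 0.0719). Kcnh8 had 626, 713 and 538 against 9.2, 48.3 and 66.6, at least 6.46-fold lower (-4.33 ± 0.75, adjusted p = 0.00657). Its positive arrays spread widely near background, and without litter 2 its adjusted p was 0.06 (log2 -4.55). The log2 difference of Kcnh8 was -3.45 without litter 1 or its ICAM1-positive array, and -4.99 without litter 3. Kcnh7, of the ERG group, was near background on all arrays and did not pass (-1.18 ± 0.83, adjusted p = 0.33).

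**Figure D2:**
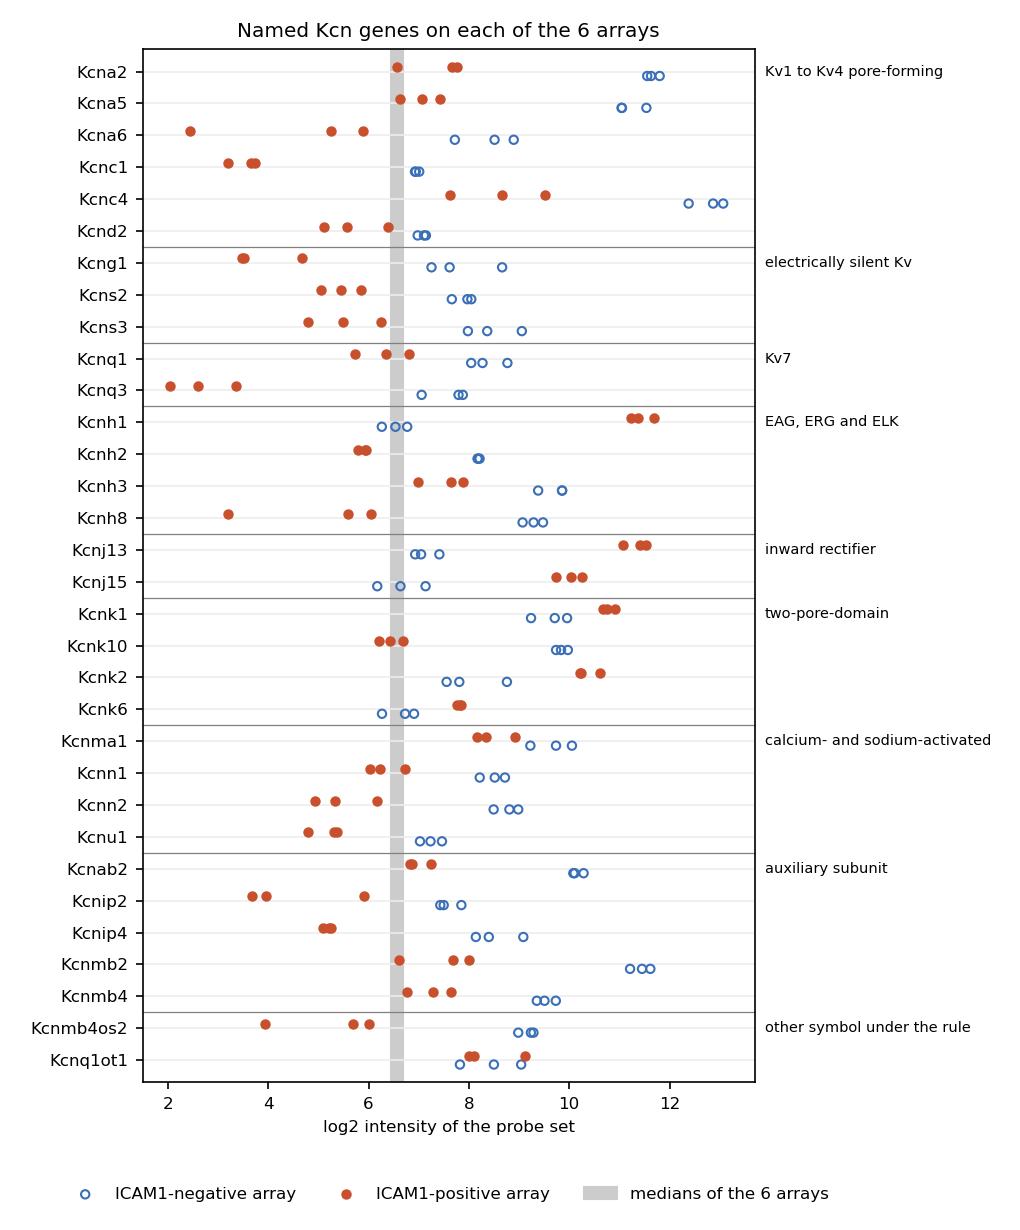
Log2 intensity (horizontal axis) of the 32 Kcn genes selected by rule, on each ICAM1-negative array (open circles) and each ICAM1-positive array (filled circles), with the range of the 6 array medians shaded. For Kcnh1 and Kcnj13 the negative arrays lie in or near the shaded range and the positive arrays far to its right, and for Kcnc4, Kcna2 and Kcna5 the negative arrays lie to the right of the positive ones.

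Inward rectifiers pass potassium more readily into than out of the cell and set the resting potential. Kcnj13, a channel of transporting epithelia such as choroid plexus and retinal pigment epithelium, read 122, 132 and 170.3 on the negative arrays and 2146, 2940.2 and 2739 on the positive arrays. No array of the positive sort came near the other sort, and the log2 difference was 4.21 ± 0.22 (adjusted p = 0.000176). Kcnj15, known from kidney and other epithelia, read 72.2, 99.5 and 141 against 1218, 854 and 1046. It rose by 3.36 ± 0.30 on the log2 scale (adjusted p = 0.000582), and its 2 other probe sets rose by at least 3.5-fold (adjusted p = 0.000936) and 1.88-fold (adjusted p = 0.00289). Kcnj16, a partner with which Kcnj15 can assemble, did not pass at its brightest probe set (1.07, adjusted p = 0.212), while another passed as higher (3.51 ± 0.90, adjusted p = 0.0284) with the negative sort near background on all arrays. That second call was lost with litter as a block (adjusted p = 0.0571) and with low intensities raised (adjusted p = 0.831). Kcnj10, the rectifier of glia, passed narrowly, from 30.2 ± 17.0 to 91.8 ± 15.7 (log2 1.82 ± 0.56, adjusted p = 0.0499). It did not pass with litter as a block (adjusted p = 0.0959), and its adjusted p was 0.0561 to 0.131 without any 1 litter or array other than the ICAM1-negative array of litter 3. Kcnj11, the pore of the channel closed by ATP, had 142, 212 and 204 against 282, 126 and 223, overlapping sorts with a difference of 0.12 (adjusted p = 0.829). A second Kcnj11 probe set, near background in both sorts, did not pass either (-1.72 ± 0.61, adjusted p = 0.0779). Kcnj3, which forms channels opened by G proteins, did not pass at its brightest probe set (-0.43, adjusted p = 0.416), but 2 others were lower. One of them was at least 1.46-fold lower (-3.91 ± 1.04, adjusted p = 0.0315). The other read 91.3, 107.6 and 76 against 1.8, 17.9 and 1.3 (adjusted p = 0.0141), largely near background in both sorts, and did not pass with low intensities raised (adjusted p = 0.998). The remaining Kcnj1, Kcnj4, Kcnj5, Kcnj6, Kcnj8, Kcnj9 and Kcnj12 had differences from -0.89 to 1.38 and did not pass.

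Two-pore-domain channels carry the background leak. Kcnk2 (TREK-1) and Kcnk10 (TREK-2), 2 close relatives opened by membrane stretch and lipids, differed in opposite directions. Kcnk2 read 224, 188 and 433 on the negative arrays and 1184, 1202 and 1567 on the positive arrays, a rise of 2.31 ± 0.35 (adjusted p = 0.00406). Kcnk10 read 915, 854 and 1005 against 85.7, 74.1 and 103, a log2 difference of -3.41 ± 0.20 (adjusted p = 0.00019), and its second probe set was at least 1.43-fold lower (-3.49 ± 0.50, adjusted p = 0.00323). Neither gene's sorts overlapped. Kcnk1 (TWIK-1) and Kcnk6 (TWIK-2), which are also related to each other, both rose. Kcnk1 had 839, 995 and 604 against 1642, 1725 and 1939 (1.15 ± 0.24, adjusted p = 0.0127), and a second Kcnk1 probe set did not pass. Kcnk6 had 106, 120.0 and 77.1 against 217, 227 and 231 (1.18 ± 0.22, adjusted p = 0.00835). These are small differences with little spread in the positive sort. Without litter 1 the adjusted p was 0.0534 for Kcnk2 (log2 2.27), 0.0917 for Kcnk1 (1.24) and 0.0769 for Kcnk6 (1.25), and without litter 3 it was 0.0925 for Kcnk1 (0.88) and 0.0695 for Kcnk6 (0.98). Kcnk12 did not pass (-1.81, adjusted p = 0.112) but was lower with litter as a block (adjusted p = 0.0127). Kcnk4, Kcnk5, Kcnk7, Kcnk13, Kcnk15 and Kcnk16 overlapped between the sorts and did not pass.

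Calcium-activated channels end bursts of firing. Kcnn1 and Kcnn2, small-conductance channels that set the afterhyperpolarisation, both fell. Kcnn2 read 506, 448 and 360.5 against 40.4, 30.5 and 71.7, at least 4.51-fold lower (log2 -3.28 ± 0.35, adjusted p = 0.0011). Kcnn1 read 422, 298 and 366 against 65.0, 75.5 and 106, also without overlap (-2.16 ± 0.26, adjusted p = 0.0016). A second Kcnn1 probe set was at least 4.85-fold lower (-4.01 ± 0.90, adjusted p = 0.0177). Kcnu1, whose channel is known from sperm, was placed in this class by its symbol only. It had 151, 176 and 130.3 against 41.4, 27.6 and 39.7, at least 1.57-fold lower (-2.09 ± 0.24, adjusted p = 0.00136). Kcnn4, the intermediate-conductance channel of blood and epithelial cells, passed narrowly near background, from 99.2 ± 12.5 to 62.6 ± 9.09 (-0.67 ± 0.20, adjusted p = 0.0468). Without any 1 litter or array its adjusted p was 0.0774 to 0.205. Kcnt1, opened by sodium, did not pass (-1.06, adjusted p = 0.0516).

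Kcnma1, the pore of the large-conductance BK channel, was the only Kcn gene with probe sets called in opposite directions. Of its 5 tested probe sets, 1440728_at read 1064, 854 and 599 against 481, 285 and 325 (-1.20 ± 0.31, adjusted p = 0.0287). Similar falls were seen for 1424848_at (673, 1172 and 622 against 224, 310.4 and 206; -1.70 ± 0.32, adjusted p = 0.00874) and for 1425987_a_at (614, 415 and 501 against 171, 181 and 163; -1.55 ± 0.20, adjusted p = 0.00232). By contrast 1428948_at rose from 156, 289.7 and 127 to 678, 918 and 631 (2.03 ± 0.36, adjusted p = 0.00698), and 1457018_at did not pass (-0.81, adjusted p = 0.156). The groups did not overlap for any of these 4 called probe sets. The fall of 1425987_a_at was called in 18 of 18 alternative settings. The rise of 1428948_at was called in 16 of 18, the exceptions being without litter 1 (log2 1.99, adjusted p = 0.0755) and without litter 3 (1.89, 0.0541), and the fall of 1424848_at was lost in the same 2 (-1.76, 0.0734, and -1.75, 0.0579). The fall of 1440728_at was lost without any 1 litter and without 4 of the 6 single arrays (adjusted p 0.0691 to 0.166, log2 -1.01 to -1.36). With the mean of all Kcnma1 probe sets the difference was -0.65 (adjusted p = 0.0661). Over all genes with at least 2 called probe sets, 87 of 2483 (3.5%) had calls in opposite directions. Where on the gene's transcripts each of these probe sets lies was not analysed here.

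The BK channel's auxiliary genes also went in opposite directions. The beta subunits Kcnmb2, which makes the current inactivate, and Kcnmb4, the neuronal beta subunit, fell. Kcnmb2 read 2375, 2802 and 3143 against 96.9, 204 and 258 (-4.00 ± 0.39, adjusted p = 0.000794), and a second probe set fell by 3.06 ± 0.23 (adjusted p = 0.000383). Kcnmb4 read 728, 654 and 851 against 109, 156 and 201 (-2.30 ± 0.27, adjusted p = 0.00159). The gamma subunit Lrrc26, which lets BK channels of secretory epithelia open at rest, rose from 122, 78.1 and 169 to 538, 447 and 464 (2.04 ± 0.31, adjusted p = 0.00412). Its adjusted p was 0.0585 without litter 1 (log2 1.99). Kcnmb1, the beta subunit of smooth muscle, was near background on all arrays, with a difference of 0.05 (adjusted p = 0.934).

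**Figure D3:**
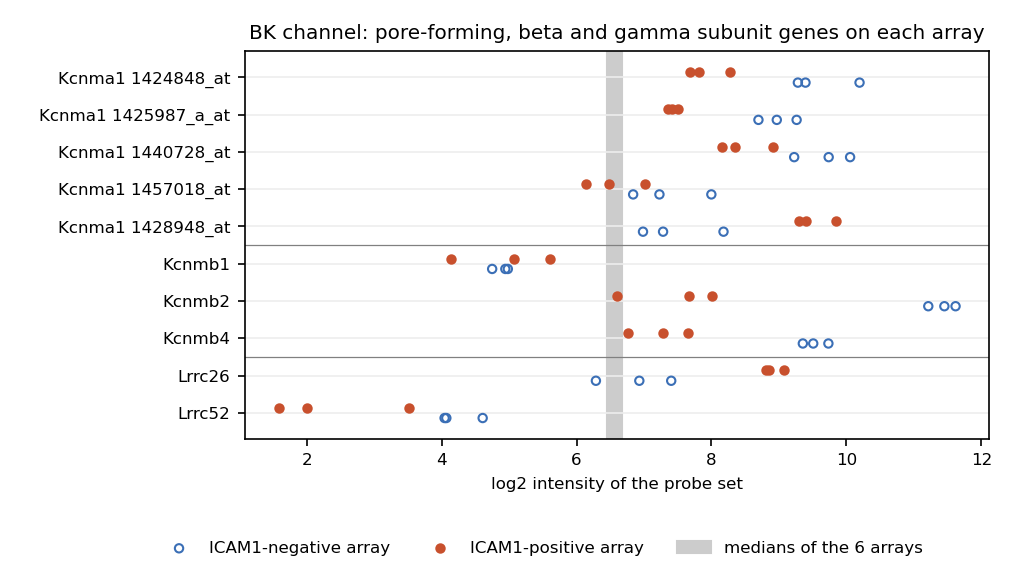
Log2 intensity (horizontal axis) of probe sets for the BK channel's pore gene Kcnma1 and its beta and gamma subunit genes on each ICAM1-negative (open circles) and ICAM1-positive array (filled circles), with the range of the array medians shaded. The Kcnma1 probe set 1428948_at and Lrrc26 are higher on all 3 positive arrays, and Kcnmb2, Kcnmb4 and the other called Kcnma1 probe sets are lower.

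Cytoplasmic partners of the Kv channels fell where they passed. Kcnab2, a beta subunit of Kv1 channels, read 1084, 1104 and 1249 against 114, 116 and 153 (-3.18 ± 0.19, adjusted p = 0.000217). A second Kcnab2 probe set was lower as well (-3.33 ± 0.36, adjusted p = 0.00111), but not with low intensities raised (adjusted p = 0.318). Kcnip4, a calcium-binding partner of Kv4 channels, read 337, 543 and 282 against 38.1, 37.0 and 34.2, at least 3.87-fold lower (-3.35 ± 0.28, adjusted p = 0.000478), and all 3 of its probe sets fell, 1 of them not with low intensities raised (adjusted p = 0.214). Neither gene's sorts overlapped. Kcnip2, of the same family, read 172, 231 and 181 against 12.8, 60.2 and 15.6, at least 2.01-fold lower (-3.08 ± 0.60, adjusted p = 0.0108), but its 2 other probe sets did not pass. With the mean of its probe sets the difference was -0.82 (adjusted p = 0.119), and its adjusted p was 0.0805 without litter 1 (log2 -2.74) and 0.0976 without litter 3 (-2.85). Without the ICAM1-positive array of litter 2, Kcnip2 differed by -3.77. Of the Kcne subunits, which tune Kv7 and other channels of epithelia, Kcne2 (2.80 ± 0.917 to 31.5 ± 16.4, adjusted p = 0.00205) and Kcne3 (7.27 ± 8.61 to 77.0 ± 24.9, adjusted p = 0.0139) passed as higher with both sorts near background. Kcne3 did not pass with litter as a block (adjusted p = 0.0503), without litter 2 (log2 3.47, adjusted p = 0.126) or without litter 3 (3.36, 0.11). Kcnab1, Kcne1l, Kcne4, Kcnip1 and Kcnip3 did not pass.

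Of the antisense RNAs, Kcnmb4os2 fell together with Kcnmb4, which it overlaps in the RefSeq table. It read 507, 603 and 625 against 64.2, 15.3 and 51.8, at least 5.98-fold lower (log2 -3.96 ± 0.56, adjusted p = 0.00295), or -3.29 without litter 2 and -3.32 without that litter's ICAM1-positive array. Kcnq1ot1, the long antisense RNA of the imprinted Kcnq1 domain, read 527, 362 and 226 against 558, 257 and 276. Its sorts overlapped, the difference was -0.04 ± 0.44 (adjusted p = 0.952), and 0 of its 6 probe sets passed, whereas Kcnq1 itself fell as given above.

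Different probe sets of a gene were rarely called in opposite directions, but often only some of them were called. Among 34 Kcn genes with at least 2 tested probe sets, all were called in 1 direction in 11 genes, some were called in 10, none in 12, and only in Kcnma1 were they called in opposite directions.

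**Figure D4:**
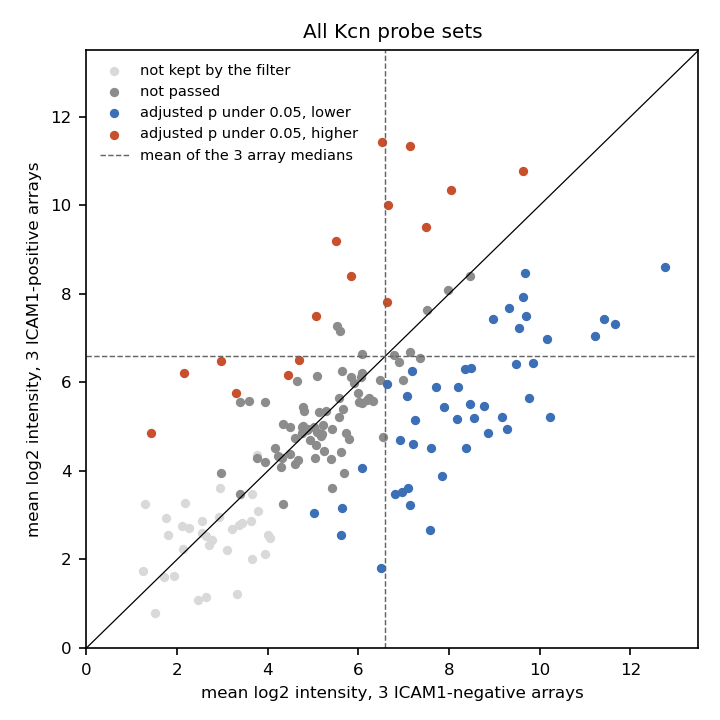
Mean log2 intensity of each of the 167 Kcn probe sets over the 3 ICAM1-negative arrays (horizontal axis) and over the 3 ICAM1-positive arrays (vertical axis), coloured by call, with the line of equality and the mean of the 3 array medians of each sort dashed. Most of the probe sets that did not pass lie below both dashed lines, and the 46 called lower outnumber the 16 called higher.

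Genes of proteins that join or anchor potassium channels were mostly lower in the ICAM1-positive cells where they passed. Of 17 such genes 15 were measured, with 1 higher (Lrrc26), 7 lower and 7 not passed, beside 20.6% higher and 20.8% lower among all genes. With litter as a block, Dpp10 (adjusted p = 0.0552) and Lrrc52 (0.0785) no longer passed as lower, and Abcc9 (0.0146) and Dlg4 (0.0386) did. Dpp10 and Lrrc52 were below the array medians on all 6 arrays and did not pass with low intensities raised (adjusted p = 0.998 for each). Lrrc52 passed the filter only through the 3 ICAM1-negative arrays, so its call adds no separate support. Ank2, an ankyrin of axons, fell from 1803 ± 278 to 209 ± 97.6 (log2 -3.21 ± 0.38, adjusted p = 0.00155). Amigo1, a partner of Kv2 channels, fell from 385 ± 85.5 to 93.7 ± 7.11 (-2.02 ± 0.22, adjusted p = 0.00106). Cntnap2, which gathers Kv1 channels beside the nodes of axons, was at least 1.93-fold lower (-1.72 ± 0.33, adjusted p = 0.00998), but not without litter 1 (-1.87, adjusted p = 0.0579), without litter 2 (-1.36, 0.0742) or with the mean of its probe sets (-1.43, 0.111). Ank3, the ankyrin of the axon's initial segment, fell from 5745 ± 830.0 to 1916 ± 569.9 (-1.62 ± 0.28, adjusted p = 0.00678), with an adjusted p of 0.0753 without litter 1. Dlg1, a scaffold, passed narrowly (-0.59 ± 0.16, adjusted p = 0.0361), and its adjusted p was 0.0527 to 0.228 without any 1 litter or array.

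Relatives of the Kv family opened by cyclic nucleotides include the cation channel of odour transduction. Of 10 HCN and cyclic-nucleotide-gated genes 6 were measured, with 3 lower, 0 higher and 3 not passed (all genes, 20.8% lower and 20.6% higher). Among the subunits of the olfactory transduction channel, Cnga2 fell from 13411 ± 1371 to 914 ± 359.7 (-3.95 ± 0.33, adjusted p = 0.000469) and Cnga4 from 7152 ± 276 to 325 ± 153 (-4.59 ± 0.40, adjusted p = 0.000557). Cngb1, the third subunit of that channel, was near background in both sorts and did not pass (63.5 ± 16.1 and 67.1 ± 21.6; 0.07, adjusted p = 0.893). The pacemaker channel Hcn2 fell from 362 ± 22.7 to 113 ± 45.6 (-1.75 ± 0.30, adjusted p = 0.00634), with an adjusted p of 0.0682 without litter 1 (-1.64) and 0.0653 without litter 2 (-1.58).

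Potassium pumps and cotransporters were divided, with 5 higher, 4 lower and 3 not passed of 12 measured from a list of 17. The shares over all genes were 20.6% higher and 20.8% lower. Atp1b3, a beta subunit of the sodium pump, rose from 1360.4 ± 412 to 9994 ± 1313 (2.91 ± 0.27, adjusted p = 0.000687), while Atp1b2, the beta subunit of glia and neurons, was at least 1.61-fold lower (-3.74 ± 0.95, adjusted p = 0.0271). The fall of Atp1b2 did not pass with litter as a block (adjusted p = 0.0575), without litter 1 (-3.12, 0.184), without litter 2 (-3.11, 0.155) or without any of 5 single arrays (adjusted p 0.0675 to 0.0819). It was -4.87 without the ICAM1-positive array of litter 3, -5.0 without that litter and -3.08 without the ICAM1-positive array of litter 2. The pump regulator Fxyd3 rose from 70.8 ± 32.7 to 4728 ± 449 (6.15 ± 0.33, adjusted p = 0.000176), and Fxyd1 was at least 6.85-fold higher (4.96 ± 0.73, adjusted p = 0.00343), or 5.82 on the log2 scale without the ICAM1-negative array of litter 2 and 5.83 without that litter. Fxyd6 went the other way and was at least 6.66-fold lower (-4.29 ± 0.69, adjusted p = 0.00505). Its adjusted p was 0.0525 without litter 2 (-4.58), and it differed by -3.51 without litter 1, by -3.60 without the ICAM1-positive array of litter 1 and by -4.95 without that of litter 3. Slc12a4, a cotransporter that carries potassium and chloride out of the cell, rose from 107 ± 23 to 2680.3 ± 223 (4.66 ± 0.22, adjusted p = 0.000156). The channels Tmem175, Tmem38a and Tmem38b did not pass.

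Markers of several cell types differed between the sorts beside these channel genes. Their counts stand against 20.6% called higher and 20.8% called lower among all genes. They include Krt15 of the horizontal basal cell list and C1qa and C1qc of the macrophage list, which passed the filter only through the 3 ICAM1-positive arrays. The calls of these markers add no separate support. Of 11 measured markers of horizontal basal cells 10 were higher, with a mean log2 intensity per array of 5.32 to 6.43 in the negative and 12.28 to 12.45 in the positive sort, and 6 of the 11 were below the array medians on all negative arrays. For mature olfactory sensory neurons 10 of 11 were lower (12.37 to 12.44 against 8.73 to 9.45), and for immature neurons and their precursors 12 of 13 (12.23 to 12.60 against 8.37 to 9.25). In the mature list 1 marker, Cngb1, was below the array medians on all arrays of both sorts. In the immature list 1 marker, Neurog1, was below them on all positive arrays and above them on all negative arrays. The positive sort also had more signal for 12 of 15 macrophage markers (5.49 to 6.17 against 9.20 to 9.63), 7 of 10 of sustentacular cells (10.21 to 10.66 against 12.30 to 12.74), 5 of 7 of Bowman glands (8.01 to 8.48 against 9.90 to 10.17) and 3 of 8 of glia (6.34 to 6.78 against 7.38 to 8.07). It had less for 6 of 11 markers of microvillar and tuft cells (7.07 to 8.09 against 6.0 to 6.43), of which Ascl3, Trpm5, Hepacam2 and Sh2d6 did not pass with litter as a block (adjusted p 0.0514 to 0.0896), and for 6 of 7 of ciliated cells (8.85 to 8.99 against 5.98 to 6.51). Of the remaining lists, 1 of 9 endothelial and 1 of 8 pericyte and smooth muscle markers were higher, 1 of 8 glial and 1 of 4 lymphocyte markers were lower. In the glial list Sostdc1 (log2 6.81), Ngfr (3.51) and Erbb3 (0.95) were higher and Mbp was lower (-1.45). The sustentacular markers that did not pass, Cyp2g1 (-0.29), Cyp1a2 (-0.69) and Sult1c1 (-0.84), had negative differences. With litter as a block, Cspg4 of the pericyte list passed as higher (adjusted p = 0.0263) and Obp2a of the Bowman gland list as lower (0.0473). The part of these cell types in any channel gene's difference was not tested.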

How the data were processed

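The values used were the linear intensities per probe set that the authors deposited, with 1 value for each of 6 arrays. GCRMA is named per the submitters' processing notes, but the deposited intensities have unequal quantiles and the same mean of 500 after trimming 2% at each end, so neither the program, nor how background was corrected, nor a detection limit is settled. Per the labels' protocols, RNA was amplified before labelling. Precision is limited by 3 arrays per sort.

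The 64 control probe sets were left out. Genes came from the platform annotation (34945 probe sets with 1 gene, 932 with several and 9160 with none listed), and all 167 Kcn probe sets matched the RefSeq table by Entrez ID with the same symbol. Probe sets with log2 intensity above 4 on at least 3 arrays (38694) entered lmFit and eBayes of limma 3.58.1, run in R 4.3.3, as ICAM1-positive minus ICAM1-negative, with Benjamini-Hochberg adjustment over all of them and a threshold of 0.05. Every adjusted p is from this test, or from its refit under the alternative named beside the value. The procedure was tested on simulated data with no litter effect and with differences placed only in brighter probe sets. A gene was represented by its tested probe set with the highest mean log2 value. A lower bound is the mean log2 value of the brighter sort minus the mean log2 median of the dimmer sort's arrays.

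Genes described singly were those that passed with the brighter sort above the array median on all 3 arrays, the brightest gene of each class and any gene with opposite calls, and up to 6 per pathway list; others are given to account for each class, chosen after their values were seen. The members and lists were chosen with earlier results of these data known. Each litter gave 1 array of each sort by the study's design text, so litters pair the arrays, and deviations from the group means correlated at 0.127, 0.199 and 0.081 within litters 1, 2 and 3 (other pairs from -0.15 to 0.033). Array correlations were 0.934 to 0.944 within and 0.762 to 0.794 between sorts. Alternatives were a pseudocount of 16, other filters, normalizations, variance models and probe set rules, litter as a block, and leaving out each litter or array.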

Additional observations from a re-analysis of the deposited data

How the results depend on the processing

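The count of Kcn genes called higher was 9, and 7 to 11 under the alternatives that kept all arrays. It was 6 to 10 when a litter or an array was left out. The count called lower was 27, and 25 to 28 and 21 to 26 respectively. For probe sets the counts were 16 higher (11 to 18, and 10 to 16 with arrays left out, the lowest without litter 3) and 46 lower (37 to 47, and 31 to 43). With litter as a block, which uses the pairing of arrays, 7 genes were higher and 28 lower, and 34 of the 36 calls were kept. Among genes described singly the block ended the calls of Kcnj10, Kcne3 and Atp1b2 and added that of Kcnk12, and changes in probe sets and listed genes stand beside them. None of the called Kcn genes among the 32 selected by rule changed direction in any alternative, while the uncalled Kcnq1ot1 ranged from -0.49 to 0.25 on the log2 scale. Of these 32, 8 lost their call without litter 1, 2 without litter 2, 6 without litter 3, 2 with the mean of a gene's probe sets and 1 to 3 without a single array, as given beside each gene. The whole array also lost calls with fewer arrays, since 1999 genes were higher and 1802 lower without litter 1, and 2068 and 1939 without litter 3, against 3375 and 3416 with all arrays. Raising low intensities to the array median ended 5 of the 36 calls and added Kcnq5 as higher. The files hold no detection limit, so the array median is a stand-in for background, and differences among genes below it could not be ranked.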
